A study of Mus musculus with 76 samples.

Results

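Genes of the complement system outside the C1q chains were followed through single macrophages of the mouse atrioventricular (AV) node: C3, C4b, Cfp and C3ar1. They were chosen by name, as the rows C3, C4B, CFP and C3AR1, and make up 4 of the 9235 genes with values. AV node tissue of C57BL/6J wild-type (WT) mice was digested, and living macrophages were sorted by flow cytometry as F4/80-high cells that also bore CD11b and CD45, had at most intermediate Ly6C and lacked high levels of lymphoid, neutrophil and erythroid surface markers. The cells were caught one by one in a Fluidigm C1 chip, and full-length cDNA was made on the chip with the SMARTer chemistry, per the labels' protocols. Age and number of animals are not in the sources used here, and all cells form 1 group. No test between groups was therefore possible, and the values describe these cells.

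Depth, estimated from the steps of the values, ran from 259559 to 6292311 reads over the 76 libraries (median 2125197). Each library had between 2324 and 4382 genes above 0. The libraries of transcriptomes 13 and 19 differed by little more than sampling noise, with a chi-square of 1.29 per degree of freedom against at least 133 in each of the 2849 other pairs. They were counted as 1 cell by their mean, which left 75 cells, and this pair also served as a repeat measurement. Of the 868 genes above 0 and below 10 counts per 1000000 reads (CPM) in transcriptome 13, 43.7% were at 0 in transcriptome 19. Of the 1691 genes at 10 CPM or more, 0.0591% were. Each member is therefore given both above 0 and at 10 CPM. The macrophage markers were present: of 8 listed, all had values, and in 50% of the cells or more 6 of them reached 10 CPM, with a summed level of 702 to 18163 CPM per cell.

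Complement is a cascade of blood and tissue proteins that tags microbes, dying cells and debris. Its pathways meet at C3, which is cleaved into C3b, a tag bound to surfaces through an internal thioester, and C3a, a soluble signal. The gene C4b encodes C4, a relative of C3 with the same kind of thioester. The cleavage product of C4, also named C4b, forms part of the classical pathway's C3 convertase. Properdin, encoded by Cfp, is a plasma protein that stabilises the alternative pathway's convertase, and C3ar1 encodes the G protein-coupled receptor for C3a. The liver is the main source of circulating C3 and C4, whereas properdin is made largely by myeloid cells, and macrophages are known to carry the C3a receptor.

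C3 and C4b are shown first as sequence, because their relation and the near-identical copy of C4b bear on how the counts can be read. The stretches below are coding bases of the longest GENCODE M21 (GRCm38) transcripts of C3 (bases 3102 to 3164 of 5136) and C4b (bases 3045 to 3107 of 5379), 5′ to 3′, and the capitals mark the 15 bases that encode the residues of the thioester.
C3: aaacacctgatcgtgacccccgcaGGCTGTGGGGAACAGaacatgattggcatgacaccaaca
C4b: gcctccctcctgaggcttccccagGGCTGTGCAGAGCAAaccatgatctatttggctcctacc
Of the 15 marked bases 11 were the same in both genes, and of the 63 bases shown 33 were, which leaves many bases that tell reads of C3 and C4b apart. C4a, a duplicate of C4b on the same chromosome, is much closer. Over 5367 aligned bases the C4b and C4a transcripts were 96.1% identical, and 35.2% of the 50-base windows of C4b occurred unchanged in a C4a transcript. The 60 coding bases with the most differences are given next, with the 13 differing bases in capitals, from base 2761 of the C4b and base 2755 of the C4a transcript.
C4b: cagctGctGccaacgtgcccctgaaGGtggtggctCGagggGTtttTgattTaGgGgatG
C4a: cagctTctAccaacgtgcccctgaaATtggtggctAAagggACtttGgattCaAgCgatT
C4a was not analysed here, and no source used here says how reads shared by C4a and C4b were counted, so the C4b level carries that uncertainty. No exon of another gene overlapped an exon of any of the 4 members in this annotation.

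The members fell into a widespread and a restricted pair. Cfp and C3ar1 ranked 52 and 75 of 9235 genes by mean CPM, not corrected for transcript length, and each reached 10 CPM in most cells. C4b was present in a minority of the cells, and C3 came almost wholly from 1 cell. Over all 9235 genes, 8.88% reached 10 CPM in 50% of the cells or more and 23.9% were above 0 in that share. Cfp and C3ar1 passed both thresholds, whereas C4b and C3 passed neither. Divided by the length of the longest coding transcript, as whole-transcript libraries require for a comparison between genes, the mean level per kilobase was 1162 ± 1181 CPM for Cfp, 339 ± 414 for C3ar1, 31.5 ± 84.8 for C4b and 16.8 ± 139 for C3 (SD, n = 75). The difference between each gene and the next in this order was smaller than the larger of their SDs.

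**Figure D1:**
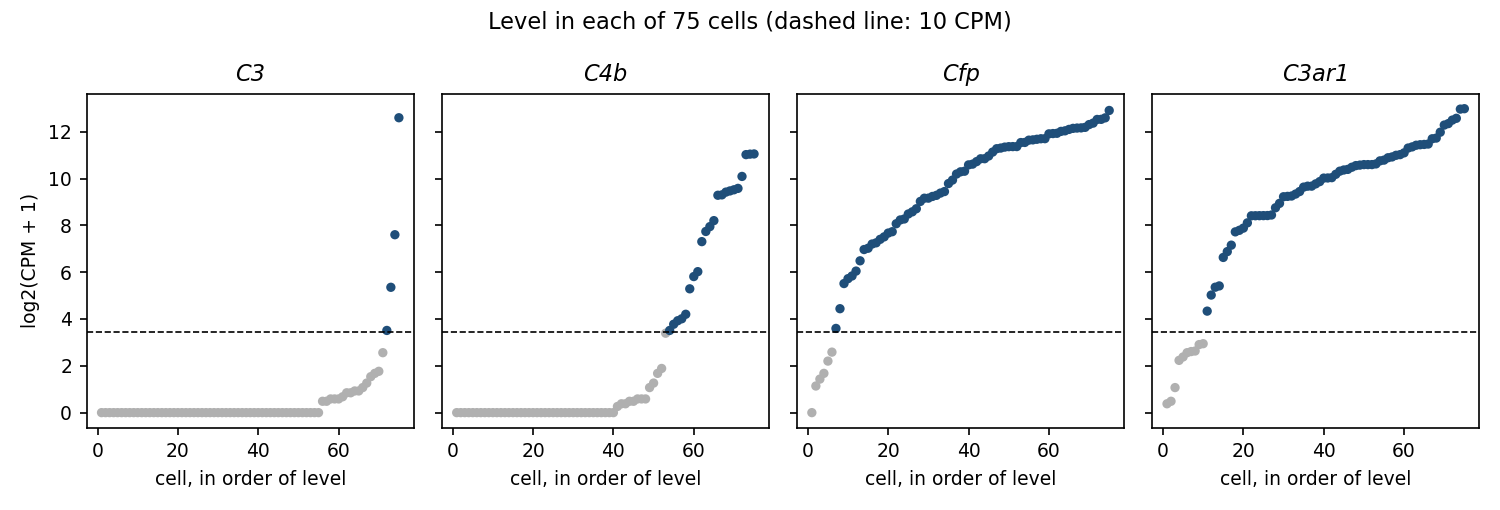
Level of each member in the 75 cells, as log2(CPM + 1) on the vertical axis, with cells sorted from lowest to highest along the horizontal axis for each gene separately. Blue points are at or above 10 CPM (dashed line) and grey points below; 69 cells are blue for Cfp, 65 for C3ar1, 22 for C4b and 4 for C3.

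C3, the central component of the cascade, ranged from 0 to 6193 CPM with a median of 0. It was above 0 in 20 of 75 cells (26.7%, exact 95% Clopper-Pearson interval 17.1 to 38.1%, covering the sampling of cells only) and at 10 CPM or more in 4 (5.33%, 1.47 to 13.1%). Transcriptome 22 alone held 95.9% of all C3, at 6193.3 CPM or an estimated 17475 reads. The next were transcriptome 78 at 193.0 CPM, transcriptome 12 at 39.9 CPM and transcriptome 28 just above 10 CPM, on 4 reads. In the 56 libraries with 0 reads of C3, the upper limit that 0 reads allow, taken as 3 reads, ran from 0.477 to 11.6 CPM with a median of 1.39. The mean was 86.1 ± 715 CPM over all cells and 3.56 ± 22.8 CPM without transcriptome 22 (SD). So large a share in 1 cell, or a larger one, was found in 1.82% of all genes, and the median gene had 35.4% of its CPM in its highest cell.

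The cell with the high C3 level carried macrophage transcripts. In transcriptome 22 Csf1r, a growth factor receptor on which macrophages depend, was at 5636.5 CPM, rank 8 of the 76 libraries from the highest, F13a1 at 17888.8 CPM and Mrc1, the mannose receptor, at 9119.5 CPM. Sepp1, which encodes selenoprotein P and was highest there of all libraries, stood at 21469.8 CPM. Itgam, which encodes CD11b, was at 0 and Ptprc, which encodes CD45, at 7.1 CPM. Low in the order of the libraries were also H2-Aa at 1137.9 CPM (rank 50), C1qa at 353.7 CPM (rank 56) and Lyve1 at 141.8 CPM (rank 46). These genes other than the members were named after their values were seen. Gsn, the only fibroblast gene with values, and the listed endothelial, cardiomyocyte and Schwann cell genes with values were at 0 in this library. Summed over the genes with values, the monocyte list stood at 110.6 CPM there, the dendritic cell list at 85.1, the T and NK cell list at 60.2, the B cell list at 51.0 and the neutrophil list at 6.7. Over the 4 cells with C3 at 10 CPM or more, the only endothelial gene with values ran from 0 to 3099 CPM and the summed cardiomyocyte genes from 0 to 482 CPM, and their part in the C3 values was not tested. In transcriptome 22 the other members stood lower than C3, with C3ar1 at 429.9, Cfp at 88.6 and C4b at 17.4 CPM.

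The 16 libraries with C3 above 0 and below 10 CPM held 1 to 4 reads each, at 0.4 to 4.9 CPM. They were transcriptomes 1, 9, 16, 20, 23, 24, 25, 26, 27, 29, 30, 38, 46, 54, 61 and 67, so that 7 of the 8 libraries numbered 23 to 30 were among them, and the remaining one of these, transcriptome 28, was the one just above 10 CPM. Another 9 genes, chosen after their values were seen, were likewise at 1000 CPM or more in transcriptome 22 and under 10% of that in every other library: Clcn7, Dhtkd1, Enpep, Glis3, Pias2, Prrg1, Skp2, Trnau1ap and Zbtb4. In the 16 libraries with low C3, between 2 and 8 of these 9 genes were above 0, with a median of 6. In the 56 libraries with C3 at 0 it was 0 to 5, with a median of 1. Enpep, for example, was above 0 in 9 of the 16 and 1 of the 56, and Prrg1 in 13 of the 16 and 6 of the 56. The low C3 values thus moved with low values of unrelated genes of transcriptome 22, and whether reads of that library had been assigned to others was not tested. The C3 level of transcriptomes 78 and 12 lay above this range, and 2 and 3 of the 9 genes were above 0 in them.

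**Figure D2:**
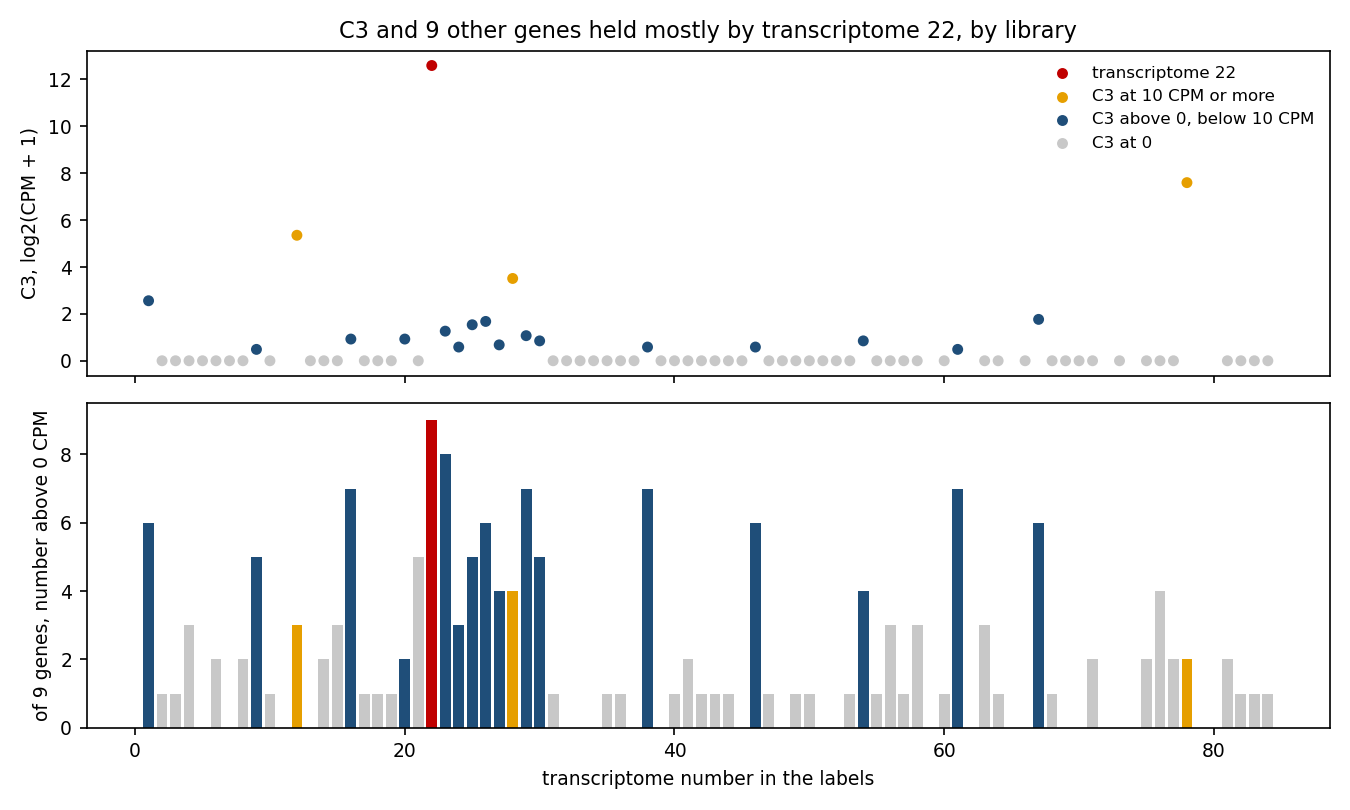
Upper panel, C3 as log2(CPM + 1) in each of the 76 libraries by the transcriptome number in the labels. Lower panel, the number of 9 other genes held mostly by transcriptome 22 that were above 0 in the same library; the blue libraries (C3 above 0 and below 10 CPM) have 2 to 8 of them and the grey ones (C3 at 0) have 0 to 5.

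C4b, the gene of the thioester protein C4 of the classical and lectin pathways, was found in a minority of the cells, at widely spread levels. It ranged from 0 to 2119.5 CPM with a median of 0, was above 0 in 35 cells (46.7%, 35.1 to 58.6%), at 10 CPM or more in 22 (29.3%, 19.4 to 41.0%), at 100 CPM or more in 14 and at 1000 CPM or more in 4. The median over the 22 cells at 10 CPM or more was 269 CPM. The highest libraries were transcriptome 49 at 2119.5 CPM, 68 at 2107.4, 56 at 2077.4, 17 at 1088.6 and 30 at 763.8. These 5 held 64.3% of all C4b, against a median of 88.3% in the top 5 cells over all genes, so C4b was not the product of a single cell. The reads behind these 5 values numbered from 547 in transcriptome 68, the shallowest library of the series, to 6079 in transcriptome 49. Of the 13 libraries above 0 and below 10 CPM, 9 rested on 1 read. In the 41 libraries with 0 reads of C4b the upper limit, again 3 reads, ran from 0.494 to 11.1 CPM with a median of 1.54.

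C4b went with transcripts of resident macrophages. The score of 15 tissue-resident genes, the mean of their standardised log2(CPM + 1), had a Spearman rho of 0.56 with C4b over 75 cells and a Pearson r of 0.50. All 15 genes had a rho above 0, with a median of 0.36, where the median over the 4735 genes compared was 0.02. Of the 22 cells with C4b at 10 CPM or more, 20 had a resident score above the median of all cells, and of the 14 cells at 100 CPM or more all 14 did. All 22 held Folr2, a folate receptor of resident macrophages, at 100 CPM or more, a level reached by 53 of the 75 cells (here and for the genes that follow, chosen after values were seen). Lyve1, a hyaluronan receptor, was at that level in 20 of the 22 and in 45 of the 75, and Timd4, which binds phosphatidylserine on dying cells, in 13 of the 22 and 23 of the 75.

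Monocyte-derived transcripts went the other way. Their score had a rho of -0.47 with C4b, and all 6 of its genes had a rho below 0, down to -0.47 for Lsp1, a leukocyte actin-binding protein. Ccr2, the chemokine receptor of monocytes, reached 100 CPM in 23 cells, of which 2 also had C4b at 10 CPM or more. These 2 cells were, however, among the 4 with C4b at 1000 CPM or more, so for Ccr2 the highest C4b levels did not follow the opposition. Of the same 4 cells, 1 had a monocyte-derived score above the median, against 37 of all 75. Lsp1 was at 100 CPM or more in 1 of the 4 and in 53 of the 75. MHC class II genes also had a rho below 0 with C4b, in 9 of 9 cases, with a median of -0.25. The interferon response score had a rho of 0.25 with C4b. All 12 of its genes were above 0 in rho, from 0.01 to 0.34 for Ifi204, with a median of 0.10. Split by genes detected into the 38 poorer and the 37 richer cells, rho with the resident score was 0.39 and 0.74, and with the monocyte-derived score -0.56 and -0.57. For MHC class II it was -0.04 and -0.52, and for the interferon response score 0.19 and 0.40.

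Depth and other cells' markers were read beside the C4b values. Its rho was 0.15 with the number of genes detected and 0.11 with the estimated reads. The summed level of the 8 macrophage markers had a median of 10837 CPM (6821 to 18163) in the 22 cells with C4b at 10 CPM or more and 7554 CPM (702 to 15016) in the other 53. Gsn, the only fibroblast gene of 10 listed that had values, had a median of 0.200 CPM in the 22 cells (0 to 507) and of 0.500 in the other 53 (0 to 3145). For the 5 dendritic cell genes with values the medians were 108 and 3.70 CPM, and for the 3 B cell genes, which include Ighm, 504 and 140 CPM. The part of these in the C4b pattern was not tested.

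**Figure D3:**
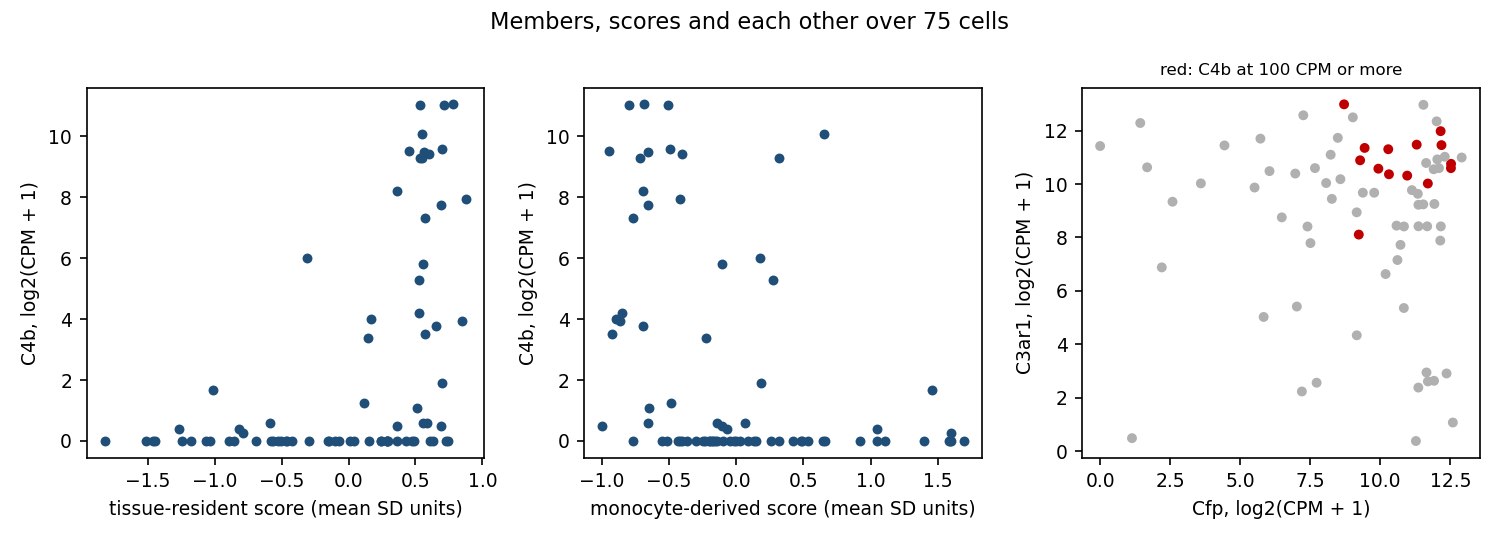
Each point is 1 of 75 cells; axes are log2(CPM + 1) for genes and mean standardised units for scores. C4b is plotted against the tissue-resident score (left, rho = 0.56) and the monocyte-derived score (middle, rho = -0.47), and C3ar1 against Cfp (right, rho = -0.03). The 14 red cells have C4b at 100 CPM or more, and all lie at 100 CPM or more in both other genes. Of all 75 cells, 62 reach that level in Cfp, 60 in C3ar1 and 49 in both.

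Cfp, the gene of properdin, was detected in more cells than the other 2 factors. It ranged from 0 to 7682.3 CPM, with a median of 1248 and quartiles of 192 and 3244, and averaged 1902 ± 1932 CPM (SD, n = 75). It was above 0 in 74 cells, at 10 CPM or more in 69 (92.0%, 83.4 to 97.0%), at 100 CPM or more in 62 and at 1000 CPM or more in 39. The 5 highest libraries were transcriptomes 75, 60, 42, 44 and 27, at 7682.3, 6174.7, 5906.3, 5887.3 and 5283.5 CPM. These cells held 21.7% of all Cfp, so the level was spread over many cells. At the other end, transcriptome 2 had 0 reads of an estimated 1496460, which allows up to 2.00 CPM, and transcriptomes 9, 58, 39 and 43 had 1.2, 1.7, 2.2 and 5.0 CPM. In the repeated cell Cfp was at 0 in transcriptome 13 and at 7.2 CPM, or 3 reads, in transcriptome 19.

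Cfp followed none of the 6 programmes closely. Its rho ranged from -0.17 for immediate early genes, the early response to handling and stimulation, to 0.13 for the tissue-resident and the MHC class II scores. Its rho was 0.32 with the number of genes detected and 0.05 with the estimated reads. The 5 genes whose pattern was most like Cfp, among the genes above 0 in at least 20 cells, were Xpo6 (rho = 0.44), Minos1 (0.42), Erp29 (0.42), Csf2ra (0.41) and Fam46a (0.40). Csf2ra encodes a chain of the receptor for granulocyte-macrophage colony stimulating factor. The lowest were Cx3cr1 (-0.47), the fractalkine receptor, Hpgd (-0.41), Ccl3 (-0.39), Myst3 (-0.36) and Dynll2 (-0.33). For Cx3cr1 rho was -0.39 in the poorer and -0.50 in the richer cells, for Hpgd -0.18 and -0.57, and for Csf2ra 0.14 and 0.59. Over the 5 most alike genes it ran from 0.14 to 0.43 in the poorer and from 0.30 to 0.59 in the richer cells.

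C3ar1, the receptor for C3a, was above 0 in all 75 cells (lower bound 95.2%) and at 10 CPM or more in 65 (86.7%, 76.8 to 93.4%). It ranged from 0.3 to 8094.8 CPM with a median of 873 and quartiles of 227 and 1916, and averaged 1461 ± 1781 CPM (SD, n = 75). The highest libraries were transcriptomes 78 at 8094.8, 5 at 7995.4, 23 at 6090.0, 29 at 5776.0 and 82 at 5204.7 CPM. Transcriptome 78 was also the second highest for C3. The 10 cells below 10 CPM held 1 to 11 reads, and in 4 of them it was 3 reads or fewer, so presence in every cell holds only at the threshold of 0.

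By rank over all 75 cells, C3ar1 ran weakly against MHC class II transcripts and with those of resident cells. Its rho was -0.32 with the MHC class II score and all 9 of its genes had a rho below 0, with H2-DMb2 lowest at -0.44. It was 0.23 with the tissue-resident score, with 15 of 15 genes above 0 and a median of 0.12, and -0.20 with the monocyte-derived score. Whether these differ from the values for C4b was not tested. Pearson's r on log2(CPM + 1) was larger in size, at -0.40, 0.43 and -0.37. Of the 65 cells with C3ar1 at 10 CPM or more, 28 had an MHC class II score above the median, against 37 of all 75. At 1000 CPM or more it was 18 of 36 cells. A resident score above the median was found in 35 of the 65, 19 of the 36 and 37 of all 75. Neither relation thus showed among the cells with the highest C3ar1 levels. In the poorer and the richer cells rho with the MHC class II score was -0.19 and -0.46, with the resident score 0.04 and 0.35, and with the monocyte-derived score -0.00055 and -0.39. Markers of other cells moved with C3ar1 as well. The 5 dendritic cell genes with values had a summed median of 5.00 CPM (0 to 3408) in the 65 cells with C3ar1 at 10 CPM or more and of 515 CPM (0.4 to 7031) in the other 10. For the 8 macrophage markers the medians were 9104 CPM (2270 to 18163) and 4918 CPM (702 to 14683), and for the 3 B cell genes 260.2 and 65.0 CPM. Their part in the C3ar1 pattern was not tested. The genes most like C3ar1 were Apoe (rho = 0.41), which encodes the lipid carrier apolipoprotein E, Nrp1 (0.39), Tle4 (0.37), C5ar1 (0.34) and Dram2 (0.34), and the least like were Psme1 (-0.45), a proteasome activator subunit, H2-DMb2 (-0.44), Tor1aip1 (-0.40), Sdhd (-0.39) and Uggt1 (-0.38). Over the 4735 genes compared rho lay between -0.45 and 0.41, and 4 genes were beyond 0.4 in size.

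**Figure D4:**
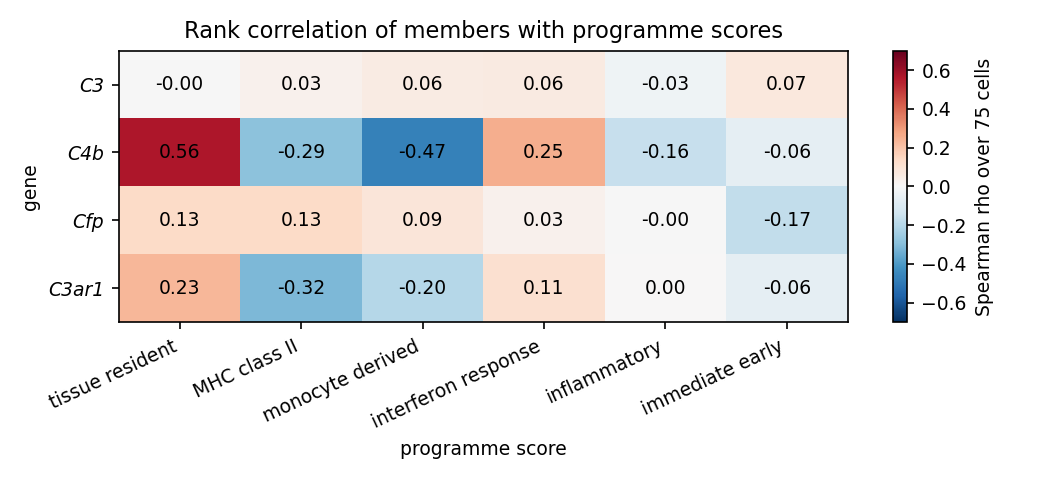
Spearman rho over 75 cells between each member (rows) and the score of each of 6 gene programmes (columns), in colour and as numbers, with no test. C4b has the values farthest from 0, at 0.56 for the tissue-resident and -0.47 for the monocyte-derived score. C3 lies between -0.03 and 0.07 in every column, but it is at 0 in 55 cells and below 10 CPM in 16 more. With values below 10 CPM set to 0, its rho runs from -0.20 to 0.26.

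By the same rule the genes most like C4b were Ednrb (rho = 0.56), an endothelin receptor, Ly6e (0.51), Ninj1 (0.50), Folr2 (0.49) and Timd4 (0.48), of which the last 3 belong to the tissue-resident list. Ednrb was at 100 CPM or more in 27 cells, and 15 of these had C4b at 10 CPM or more. The least like were Fxyd5 (-0.49), Lsp1 (-0.47), Fam168a (-0.41), Snd1 (-0.41) and Tmsb10 (-0.41). With values below 10 CPM set to 0, rho was 0.47 for Ednrb, 0.50 for Folr2, -0.42 for Fxyd5 and -0.44 for Lsp1, but -0.15 for Tmsb10, which reached 10 CPM in 9 cells. The genes most like C3 were Prrg1 (0.64), Hsph1 (0.53), Zbtb4 (0.50), Clcn7 (0.49) and Stk3 (0.46). Prrg1, Zbtb4 and Clcn7 are 3 of the 9 genes held mostly by transcriptome 22, and with values below 10 CPM set to 0 rho was 0.42 for Prrg1, 0.29 for Hsph1, 0.49 for Zbtb4, 0.11 for Clcn7 and 0.09 for Stk3, so that it was nearly the same for Zbtb4 and lower for the other 4. The least like C3 were Srsf11 (-0.36), Fnta (-0.35), 1110028C15Rik (-0.34), Commd10 (-0.34) and Pex19 (-0.33). Siglech, a lectin of plasmacytoid dendritic cells, had a rho of 0.41 with C4b, and Retnla, a secreted protein of alternatively activated macrophages, 0.31 with Cfp.

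Among themselves the members showed little relation. Over 75 cells rho was 0.27 between C4b and C3ar1, 0.25 between C4b and Cfp, -0.03 between Cfp and C3ar1, and from -0.09 to -0.02 between C3 and the others. For C4b and C3ar1 it was 0.04 in the poorer and 0.49 in the richer cells, and for C4b and Cfp 0.38 and -0.01, so neither held in both sets. At 10 CPM, 60 cells held both Cfp and C3ar1, 9 held Cfp without C3ar1, 5 held C3ar1 without Cfp and 1 held neither. At 1000 CPM the corresponding numbers were 17, 22, 19 and 17. All 22 cells with C4b at 10 CPM or more held Cfp at that level and 21 held C3ar1, and the 14 cells at 100 CPM and the 4 cells at 1000 CPM held both at those same levels. Over all 75 cells, Cfp reached 10, 100 and 1000 CPM in 69, 62 and 39 cells, and C3ar1 in 65, 60 and 36. Both together reached these levels in 60, 49 and 17 of the 75 cells, and a difference by C4b was not tested. The ligand gene C3 and its receptor were at 10 CPM or more together in 3 cells. By the number of members at 10 CPM or more, 1 cell had none, 13 had 1, 38 had 2, 21 had 3 and 2 had all 4.

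The other genes of the system, from lists by role, gave the setting. Of 57 listed complement genes 20 had values, 14 were above 0 in 50% of the cells or more, and 9 reached 10 CPM in that share. Among all 9235 genes with values, 23.9% and 8.88% did so. Of the initiators, C1qb was at 8448 ± 4885 CPM and at 10 CPM in 73 cells, C1qa at 1218 ± 992 and C1qc at 1120 ± 1038 CPM. The ficolin Fcna and the collectin Colec12 reached 10 CPM in 18 and 25 cells. Colec12 was the complement gene nearest to C4b, at a rho of 0.47. C2, which supplies the catalytic part of the classical convertase, reached 10 CPM in 3 cells and had a value above 0 in 6, fewer than C4b. The 7 genes of the terminal pathway, which forms the membrane pore, are not analysed here, nor are Cfb and Cfd.

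Of the 10 listed receptors 9 had values, and 4 of these 9 reached 10 CPM in 50% of the cells or more, against 8.88% of all 9235 genes. C5ar1, the receptor for C5a, averaged 1213 ± 1514 CPM and reached 10 CPM in 61 cells, near C3ar1. At 100 CPM or more, 60 of the 75 cells held C3ar1, 53 held C5ar1 and 47 held both. C5ar2, listed in the table under its older name Gpr77, averaged 187 ± 231 CPM and was at 10 CPM in 47 cells, and its rho with C4b was 0.40. The chains of the C3 fragment receptor CR3, Itgam and Itgb2, reached 10 CPM in 47 and 37 cells. Itgax, the partner chain of Itgb2 in CR4, did so in 2 cells. Vsig4, a C3b receptor of resident macrophages, was above 0 in 46 cells but reached 10 CPM in 12, and its 5 highest cells held 80.1% of its CPM. Cd93 reached 10 CPM in 19 cells and Lrp1 in 36.

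Among the regulators, Cr1l, which encodes the membrane protein Crry, reached 10 CPM in 25 cells and had a value above 0 in 46.

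**Figure D5:**
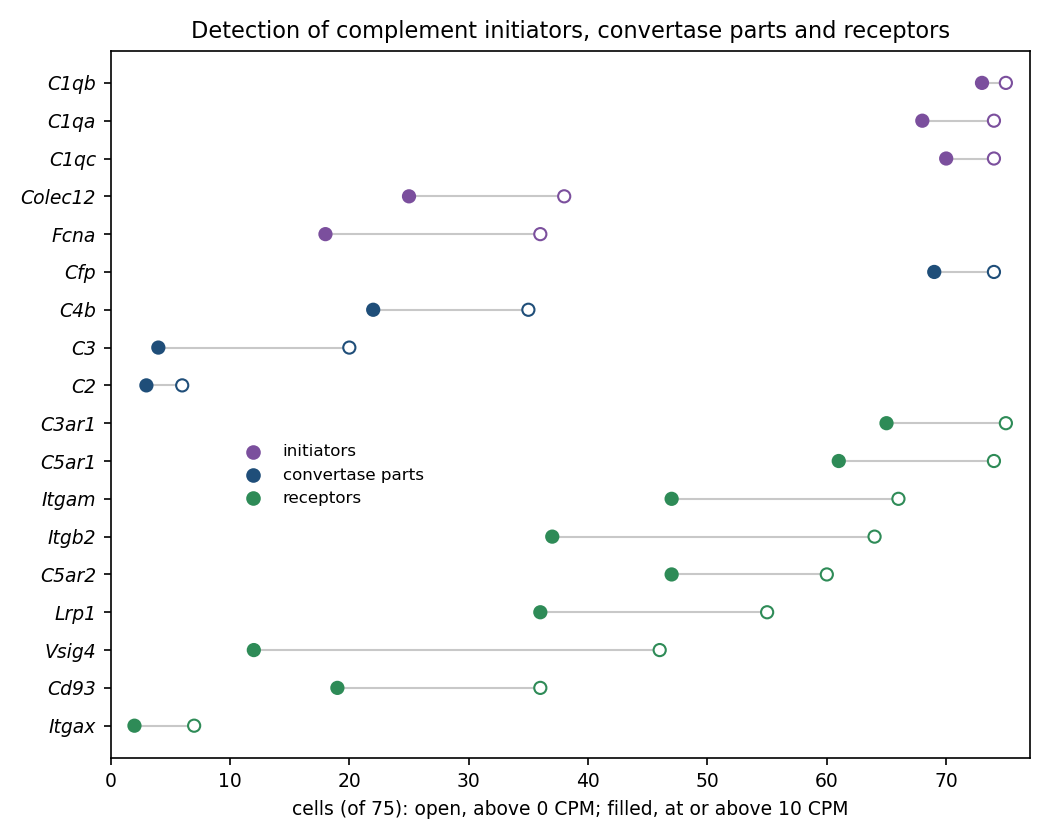
Number of cells, of 75, with each initiator, convertase part and receptor that had values above 0 CPM (open circles) and at or above 10 CPM (filled circles), coloured by role. The C1q chains, Cfp, C3ar1 and C5ar1 reach 10 CPM in 61 to 73 cells, whereas C3 and C2 drop to 4 and 3.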

How the data were processed

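The authors deposited CPM, counts per 1000000 reads over the genes of the table, rounded to 1 decimal, for 76 libraries of 1 cell each. Per the submitters' processing notes, mm9 was the build and the tools were HTSeq 0.6.0 and STAR 2.3.0; no source used here gives the annotation. Libraries were matched to samples by transcriptome number. The members and lists were chosen with earlier results of these data known. The values of C3, C4b, Cfp and C3ar1 were read from the table; gene symbols were matched without regard to case, older names only where no other gene bears them.

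The CPM of 1 read was estimated per library as the step whose whole multiples, up to 60 and rounded to 1 decimal, held the most low values; 98.5% to 100% of them were whole multiples, and the method was tested on simulated data. No cell was filtered out and no doublet caller was run. No count model was fitted, since there is 1 group. Intervals are exact 95% Clopper-Pearson intervals; they and the reads cover counting or sampling of cells only, as amplified copies are not independent molecules. Scores are means of standardised log2(CPM + 1) over genes above 0 in at least 8 cells. Named genes were the members, the complement genes with values (1 regulator is not reported here), the 5 most and 5 least alike genes by Spearman rho over genes above 0 in at least 20 cells, and the 5 highest cells. The reference (GENCODE M21, GRCm38) has another build than the table. Transcript sequences and lengths were taken from it, and its own exon coordinates served only for the check of overlapping exons. Python 3.11.15, scipy 1.17.1 and Biopython 1.88 were used.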

Additional observations from a re-analysis of the deposited data

How the results depend on the processing

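Alternatives were the threshold of 10 CPM, thinning every cell to 250000 reads, all 76 libraries counted separately, keeping the 56 cells with the most genes detected, and another correlation measure or pseudocount; leaving out transcriptome 22, and the separate count or the 56 cells for 11 further results each, were added after the data were seen. Of 204 values, 194 stayed within the SD between cells, the 95% interval or 1.5 times the first value. The share of cells with a member depended on the threshold. At 10 CPM it was 5.33% for C3, 29.3% for C4b, 92.0% for Cfp and 86.7% for C3ar1. After thinning it was 9.33% for C3, 34.7% for C4b and 89.3% for C3ar1. Fewer reads and a higher threshold remove low values by construction. Among the 56 cells with the most genes detected Cfp was above 0 in 100%. The number of complement genes found in at least 50% of the cells was 9 at 10 CPM in place of 14. With values below 10 CPM set to 0, the rho of C3 with the monocyte-derived score was -0.20 in place of 0.06; the cause was not tested. The 194 include the mean of C3 without transcriptome 22, 3.56 CPM in place of 86.1. It lies within the SD only because that cell sets the SD of 715 CPM, so it is no sign of stability. No paired analysis was possible because the labels give 1 group.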

Other observations

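Low values of genes held almost wholly by 1 library were spread unevenly over the transcriptome numbers. There were 63 genes at 2000 CPM or more in 1 library and under 5% of that in every other, with transcriptomes 13 and 19 left out as holders. In libraries whose number lay within 8 of the holder's, 217 of 899 values (24.1%) were above 0 and below 10 CPM. In libraries farther away it was 404 of 3826 values. C3 is 1 such gene. The genes share libraries, so these values are not independent, and no cause was tested.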
